A study of Mus musculus with 2 samples.

Results

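The genes described here are 10 members of 3 growth factor systems: the vascular endothelial growth factor (VEGF) ligand gene Vegfa with its receptor genes Kdr and Flt1, the angiopoietin ligand genes Angpt1 and Angpt2 with their receptor gene Tek, and the platelet-derived growth factor (PDGF) ligand genes Pdgfa and Pdgfb with the receptor genes Pdgfra and Pdgfrb. They were chosen by symbol, and all 10 were found in the files. Their RNA was counted by droplet-based single-cell sequencing of dissociated dorsal telencephalon, the part of the forebrain that gives rise to the cortex, from mouse embryos at embryonic day 16.5. The series sets Emx1Dot cKO embryos against controls. Only 2 libraries were analysed here, WT replicate 1 and WT replicate 6, both with the genotype WT and the tissue given as brain hemispheres, so no genotypes were compared. The labels do not say which alleles a WT embryo of this cross carried, how many embryos went into a library, or whether the libraries came from separate embryos, and p-values therefore measure only the spread between these 2 libraries.

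In the developing brain, vessels invade from the surface and are built of endothelial cells wrapped by mural cells (pericytes and smooth muscle cells). VEGF-A from neural tissue acts on the endothelial tyrosine kinase receptors VEGFR2 (Kdr) and VEGFR1 (Flt1), of which the second also binds and holds back the ligand. Angiopoietin 1 activates the endothelial receptor TIE2 (Tek), angiopoietin 2 can block or activate it depending on context, PDGF-B from endothelium recruits mural cells through PDGF receptor beta, and PDGF-A acts through PDGF receptor alpha on oligodendrocyte precursor cells (OPCs) and on fibroblasts.

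WT replicate 1 held 14136 called cells and 74930397 unique molecular identifiers (UMIs, each standing for 1 captured RNA molecule), and WT replicate 6 held 13046 cells and 68964234 UMIs. A total of 8139 and 8209 cells had between 1500 and 60000 UMIs with less than 10% of them mitochondrial. The libraries shared 59 cell barcodes, 26 of them among cells that passed the filters in both. Cells were placed in classes by markers that include none of the 10 genes, which gave, in WT replicate 1 and 6, 67 and 58 endothelial cells, 95 and 92 mural cells, 97 and 97 fibroblasts, 29 and 26 OPCs, 412 and 401 radial glia, 149 and 178 intermediate progenitors, 2482 and 2770 excitatory neurons and 1505 and 1447 GABAergic neurons. Progenitors (713 and 713 cells) are the radial glia, the intermediate progenitors and 152 and 134 further cells that met both of these gates, and neurons (3987 and 4217 cells) are the excitatory and GABAergic neurons together. Microglia (76 and 86 cells) and erythroid cells (70 and 104 cells) served as classes that should lack most members. A choroid plexus gate was met by 7 cells, too few to describe as a class. They held 9 UMIs each of Vegfa and Pdgfra (95.9 CPM over both libraries), 6 of Pdgfa (64.0 CPM), 4 of Kdr (42.6 CPM) and 1 each of Angpt2 and Pdgfb (10.7 CPM), and all statements below on other classes concern the 10 classes named above. The summed level of a marker list outside its own class was highest in these cases: in OPCs the radial glia markers reached 65.7% of their level in radial glia, in intermediate progenitors the excitatory neuron markers reached 18.8% of their own level, in fibroblasts the radial glia markers reached 9.29% and the mural markers 9.07%, and in mural cells the fibroblast markers reached 9.09% of the fibroblast level. Levels are given in CPM, the UMIs of a gene per 1000000 UMIs of a class in a library. A level of 0 allows up to 3 UMIs over both libraries, which is 1.82 CPM in endothelial cells, 5.06 CPM in OPCs and 0.0608 CPM in excitatory neurons, and this floor and all intervals cover counting error only.

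By the RefSeq annotation of build GRCm38.p6 (the mm10 build of the submitters' processing notes), 4 of the 10 genes lie on chromosome 5: Pdgfra at chr5:75151322-75198206, Kdr at chr5:75932827-75979072, Pdgfa at chr5:138976014-139000792 and Flt1 at chr5:147561604-147726438. Vegfa lies at chr17:46016993-46032377, Angpt1 at chr15:42424667-42676977, Angpt2 at chr8:18690263-18741562 and Pdgfb at chr15:79995865-80024614. Pdgfra and Kdr, separated by 735 kb, had opposite class patterns, since Kdr had 1455 UMIs in endothelial cells and 0 in OPCs, and Pdgfra 0 in endothelial cells and 417 in OPCs. Tek lies at chr4:94739086-94874976. Promoter sequences of the 3 endothelial receptor genes are shown because these genes were highest in the same class. Each is the 250 bases before a RefSeq start site in build GRCm38.p6, read 5′ to 3′ on the gene's strand, with capitals marking AGGAAG or its reverse complement CTTCCT, a form of the core bound by ETS family factors, of which the endothelial marker Erg is a member:
Kdr (chr5:75978456-75978705, minus strand): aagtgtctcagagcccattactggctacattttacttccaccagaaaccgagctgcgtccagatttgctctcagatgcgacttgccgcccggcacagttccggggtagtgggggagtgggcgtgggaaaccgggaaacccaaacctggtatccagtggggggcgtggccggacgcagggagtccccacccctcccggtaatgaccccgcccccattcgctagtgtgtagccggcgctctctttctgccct
Flt1 (chr5:147726012-147726261, minus strand): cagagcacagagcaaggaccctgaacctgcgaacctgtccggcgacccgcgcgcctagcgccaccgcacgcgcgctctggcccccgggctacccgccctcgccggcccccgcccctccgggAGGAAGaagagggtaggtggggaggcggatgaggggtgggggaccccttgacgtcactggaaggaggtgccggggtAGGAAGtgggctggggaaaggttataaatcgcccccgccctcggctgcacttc
Tek (chr4:94739039-94739288, plus strand): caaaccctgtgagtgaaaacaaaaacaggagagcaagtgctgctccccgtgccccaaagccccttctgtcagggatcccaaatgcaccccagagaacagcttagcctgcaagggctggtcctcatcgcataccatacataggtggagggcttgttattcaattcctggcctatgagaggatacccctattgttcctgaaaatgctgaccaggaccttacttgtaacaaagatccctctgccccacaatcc
The Flt1 window held 2 matches, starting 129 and 53 bases before the start site, and the Kdr and Tek windows held 0. A window of Pdgfa, which was highest in mural cells, also held 1 match, starting 110 bases before its start site. Shorter forms of this core were not searched. The Kdr and Flt1 windows lie within the gene spans given above. Of 32851 promoter windows of this length, 9686 (29.5%) held the motif. The match is a description of letters only, and 6 of the 10 members had an entry in the promoter table.

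The plot of levels by class shows a difference between the receptor genes with Pdgfb and the other ligand genes: genes near 0 outside 1 to 3 classes (Kdr, Flt1, Tek, Pdgfb, Pdgfra and Pdgfrb), and genes spread more widely, the ligand genes Vegfa, Angpt1, Angpt2 and Pdgfa, which were highest in fibroblasts or mural cells but were counted in every neural class too.

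**Figure D1:**
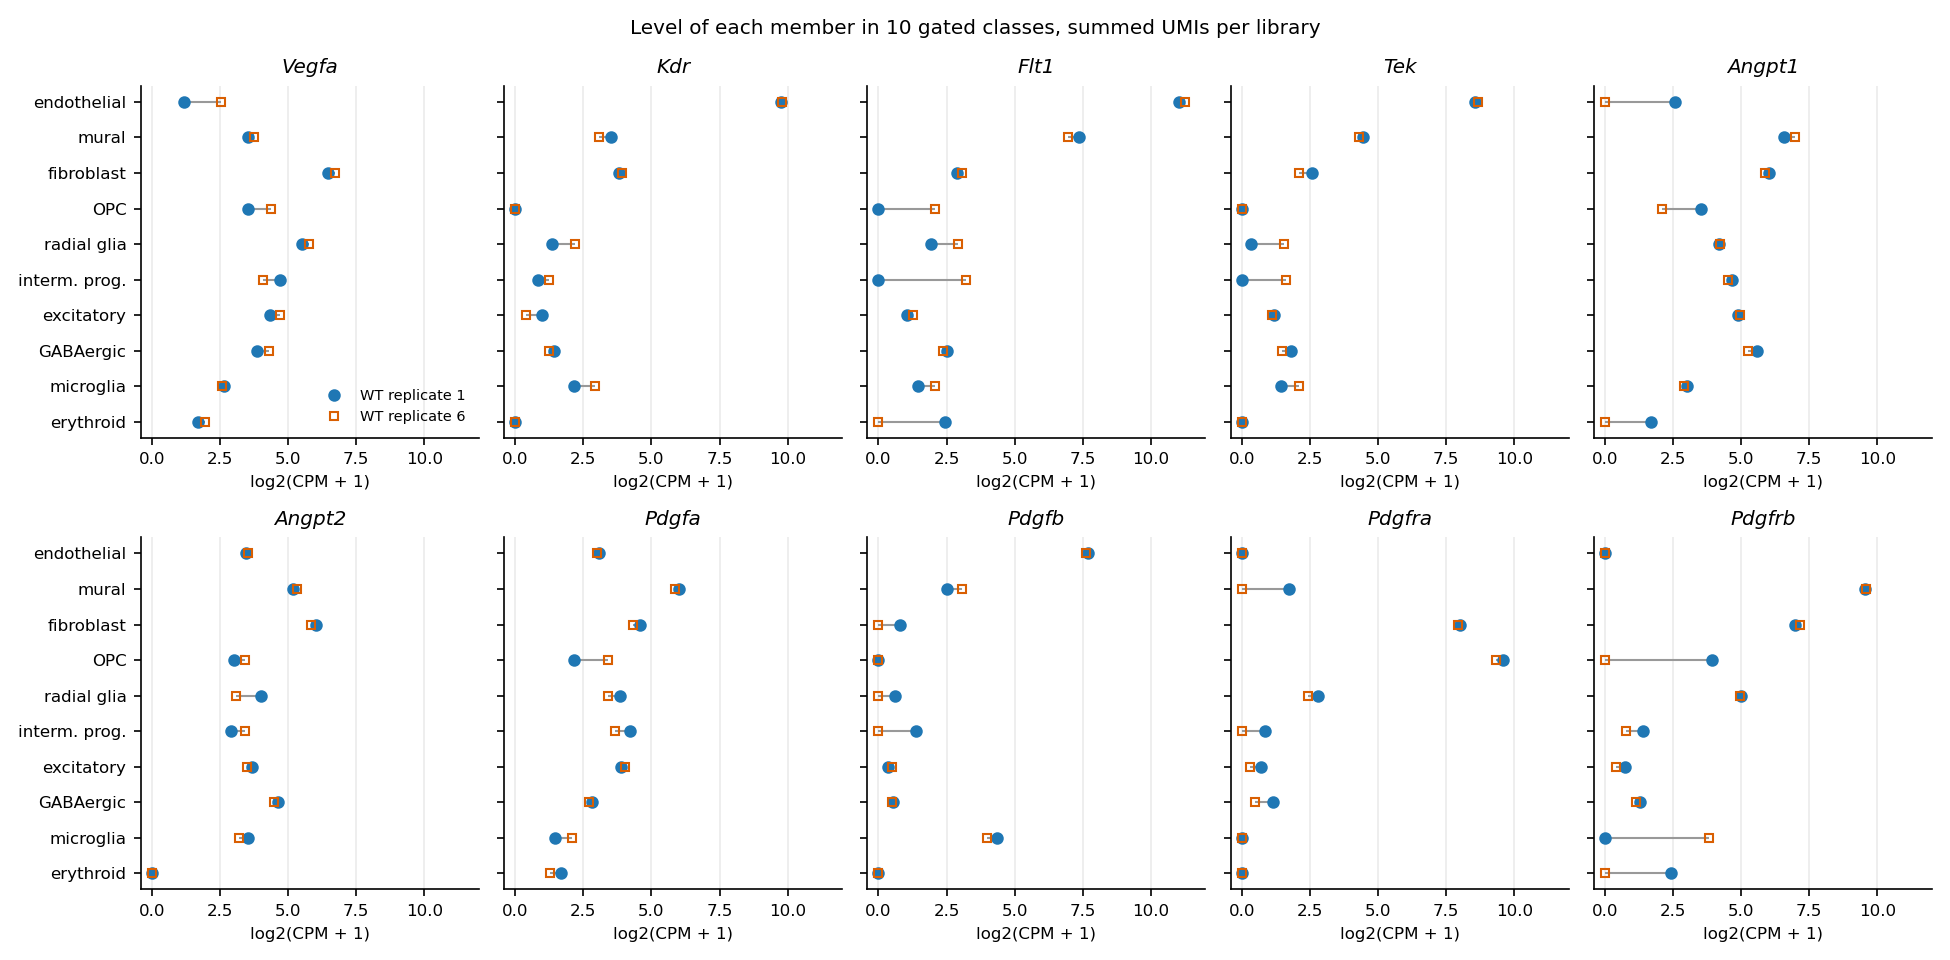
Level of each member as log2(CPM + 1) on the horizontal axis in 10 gated classes, with a blue circle for WT replicate 1 and an orange square for WT replicate 6, joined by a grey line. Flt1 reached 2246 CPM on average in endothelial cells and Pdgfrb 758.3 CPM in mural cells, while Pdgfra and Pdgfrb sat at 0 in both endothelial sums.

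The receptor genes of VEGF and angiopoietin marked the endothelial cells. Kdr stood at 863.6 CPM in WT replicate 1 and 896.3 CPM in WT replicate 6 in endothelial cells, against 10.6 and 7.41 CPM in mural cells, 12.9 and 14.0 CPM in fibroblasts and at most 6.53 CPM in the other 7 classes in either library. Flt1 stood at 2088 and 2404 CPM in endothelial cells and at 164.1 and 122.3 CPM in mural cells. Tek stood at 375.4 and 406.8 CPM in endothelial cells and at 21.1 and 18.5 CPM in mural cells. For each of the 3 genes both endothelial values lay above every other class value. After each cell was thinned to 2000 UMIs, so that deeper cells gained no advantage, 84.0% of endothelial cells held a Kdr UMI (Wilson 95% interval 76.6 to 89.4%), 92.0% a Flt1 UMI (85.9 to 95.6%) and 46.4% a Tek UMI (37.9 to 55.1%). The shares without thinning were 99.2%, 99.2% and 91.2%, at a median of 10962 UMIs per cell. In microglia, at a median of 6830.5 UMIs, the thinned shares were 0.730% for Kdr and 1.46% for Flt1.

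The receptors were found in the same cells. Of 125 endothelial cells, 123 held UMIs of both Kdr and Flt1, 114 of both Kdr and Tek, and 104 of both Kdr and Pdgfb. The pairing of Pdgfb with Angpt2 was seen in 9 endothelial cells, while 95 held Pdgfb without Angpt2.

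**Figure D2:**
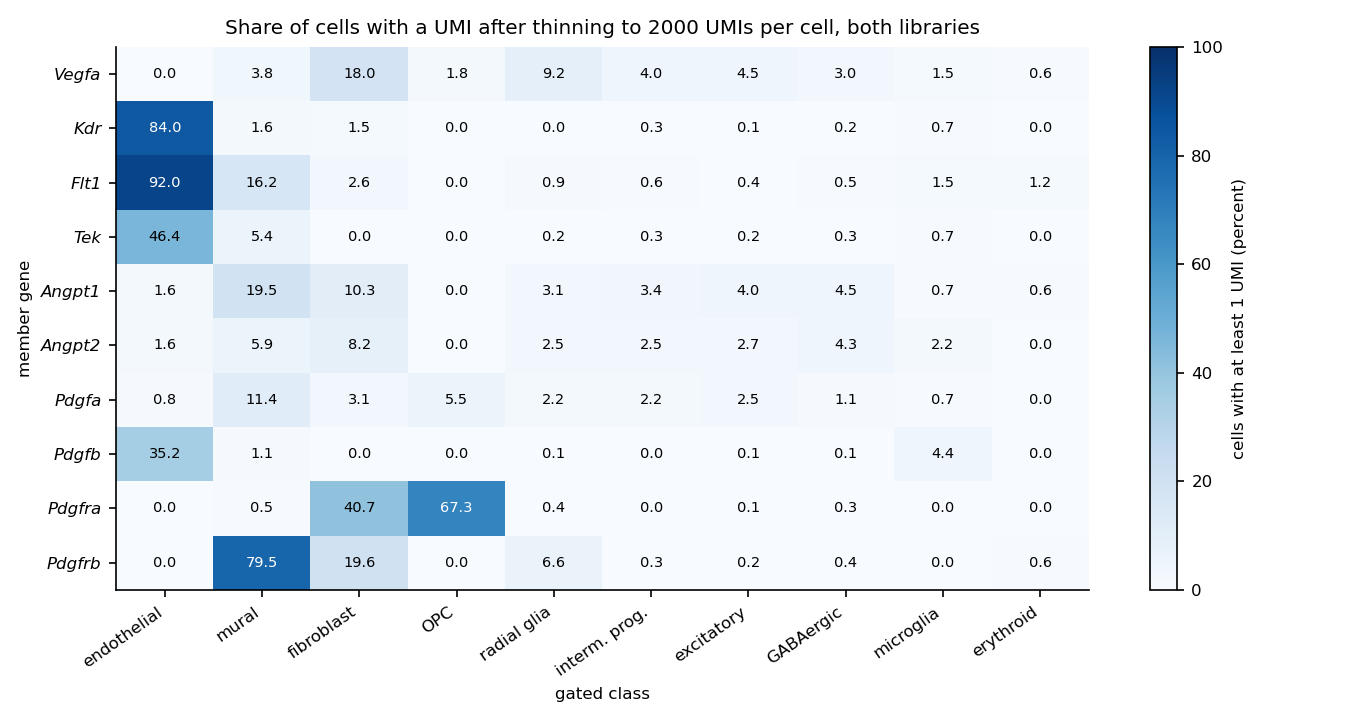
Percent of cells with at least 1 UMI of each member (rows) in 10 gated classes (columns) after thinning every cell to 2000 UMIs, both libraries together. Dark cells mark Kdr and Flt1 in endothelial cells (84.0% and 92.0%), Pdgfrb in mural cells (79.5%) and Pdgfra in OPCs (67.3%).

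Endothelial and mural cells, the layers of the vessel wall, were compared on their summed UMIs with edgeR. Of 9513 genes tested, 30.5% were called at an adjusted p under 0.05, 15.2% as higher in endothelial cells and 15.3% as lower, and all 8 members tested were called (Vegfa, with 5 and 19 UMIs, and Pdgfra, with 0 and 2 UMIs, were too low to test). Kdr was higher in endothelial cells by 6.61 ± 0.23 (log2, SE; edgeR adjusted p = 6.58e-08), Pdgfb by 5.05 ± 0.26 (adjusted p = 3.20e-07), Tek by 4.32 ± 0.19 (adjusted p = 1.51e-07) and Flt1 by 3.99 ± 0.19 (adjusted p = 1.95e-07). The other ligand genes were lower in endothelial cells: Angpt1 by a log2 difference of -5.38 ± 0.52 (adjusted p = 2.16e-05), Pdgfa by -2.998 ± 0.34 (adjusted p = 6.70e-05) and Angpt2 by -1.82 ± 0.34 (adjusted p = 0.00219). Pdgfrb had 0 UMIs in endothelial cells and 1260 in mural cells, which makes it at least 418-fold lower in endothelial cells when the zero is set to 3 counts over both libraries (edgeR adjusted p = 8.73e-08). The differences within each library had the same sign for all 8 members.

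Among other genes of the same families, ligand genes fell on both sides. Of 13 further family and co-receptor genes listed, 10 could be tested, 6 were higher in endothelial cells and 2 lower, with a median log2 difference of 3.55 beside -0.02 over all genes tested. Higher were Ptprb (7.05 ± 0.34), a phosphatase that opposes TIE2, Pdgfd (6.81 ± 0.43), Flt4 (5.50 ± 0.58), the receptor of VEGF-C, Tie1 (5.06 ± 0.30), the partner of TIE2, Vegfc (4.11 ± 0.65) and Nrp2 (3.001 ± 0.24). Pgf, a ligand of VEGFR1, was lower in endothelial cells (-6.32 ± 0.58), as was Vegfb (-0.89 ± 0.30, adjusted p = 0.0439), while the VEGF co-receptor Nrp1 differed by 0.26 ± 0.18 without a call (edgeR adjusted p = 0.314). Of 8 genes linked to sprouting endothelium 6 were tested and 5 were higher in endothelial cells, Apln by 9.46 ± 0.62, Cd34 by 7.88 ± 0.28, Dll4 by 3.797 ± 0.50, Plvap by 3.25 ± 0.59 and Hey1 by 2.72 ± 0.42, and Unc5b differed by 0.13 ± 0.16 without a call. Of 10 hypoxia-responsive genes 3 were higher (the glucose transporter gene Slc2a1 by 5.35 ± 0.24, Adm by 2.94 ± 0.34 and Ankrd37 by 1.87 ± 0.19) and the other 7 were not called, with a list median of 0.38.

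Flt1 and Tek were also counted in mural cells. The mural sums held 140 and 99 Flt1 UMIs, and 16.2% of mural cells (11.6 to 22.2%) held a Flt1 UMI after thinning, 23.4% in WT replicate 1 and 8.79% in WT replicate 6. The mural level was 6.38% of the endothelial level for Flt1 and 5.07% for Tek, against 1.02% for Kdr. The endothelial marker list was summed at 443.1 and 378.1 CPM in mural cells, 4.44% of its endothelial level, but unevenly. Emcn stood at 63.4% and Esam at 27.0% of their endothelial levels. Egfl7 stood at 3.19%, Ramp2 at 2.81%, Slco1c1 at 1.91% and Erg at 1.30%. Cdh5 (0.152%), Pecam1 (0.130%) and Cldn5 (0.0800%) were near 0, and Ly6c1 was at 0. In the 16 mural cells with 0 endothelial markers detected Flt1 was at 113.6 CPM (10 UMIs), in the 54 cells with 1 marker at 120.9 CPM, in the 65 cells with 2 at 147.5 CPM, in the 37 cells with 3 at 72.2 CPM and in the 15 cells with 4 at 373.0 CPM. The 15 cells with most markers held 59 of the 239 Flt1 UMIs. They held 158177 UMIs of all genes, against 88010 in the 16 cells with 0 markers. The number of markers detected was thus not independent of depth. The part of endothelial RNA in the Flt1 and Tek levels of mural cells was not tested.

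**Figure D3:**
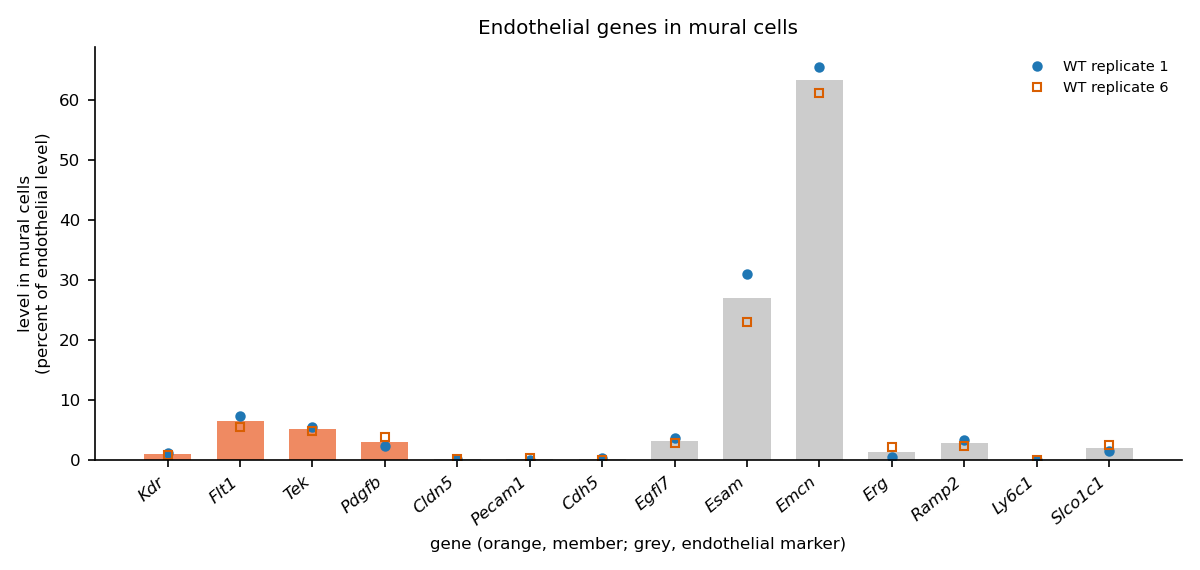
Level in mural cells as a percent of the mean endothelial level (vertical axis, bars are the mean and points the 2 libraries) for 4 members (orange) and 10 endothelial markers (grey). Flt1 (6.38%) and Tek (5.07%) stand below Emcn (63.4%) and Esam (27.0%). They stand above Egfl7 (3.19%), Ramp2 (2.81%), Slco1c1 (1.91%), Erg (1.30%), Cdh5, Pecam1, Cldn5 and Ly6c1.

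Endothelial cells were next set against progenitors, the radial glia and intermediate progenitors of the germinal zones, to compare the receptors with neural ligand genes. Vegfa stood at 1.24 and 4.73 CPM in endothelial cells and at 38.7 and 39.4 CPM in progenitors. Of 13182 genes tested 49.5% were called, 24.2% as higher in endothelial cells and 25.3% as lower, and 8 of the 10 members were called. Flt1 (9.34 ± 0.43, edgeR adjusted p = 2.19e-06), Kdr (8.96 ± 0.22, adjusted p = 2.61e-07), Pdgfb (8.70 ± 0.24, adjusted p = 3.27e-07) and Tek (8.44 ± 0.21, adjusted p = 2.61e-07) were higher in endothelial cells, and Vegfa (-3.47 ± 0.39, adjusted p = 0.000222) and Angpt1 (-2.46 ± 0.68, adjusted p = 0.0192) were lower. Pdgfrb and Pdgfra, both at 0 UMIs in endothelial cells, were at least 10.0-fold and 2.06-fold lower there when the zero is set to 3 counts (edgeR adjusted p = 0.000704 and 0.0331). The call for Pdgfra was lost with the library as a block (-6.78 ± 2.28, adjusted p = 0.0528), in DESeq2 and with the stricter cell filter (adjusted p = 0.0652 and 0.0584), and its direction turned when 1 more marker was required (0.56 ± 0.96, adjusted p = 0.657), and the call for Angpt1 was lost when 1 more marker was required of each class (-1.35 ± 0.67, adjusted p = 0.126). Angpt2 (0.22 ± 0.42, adjusted p = 0.691) and Pdgfa (-0.32 ± 0.42, adjusted p = 0.568) were not called.

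Among the further family genes 11 were tested against progenitors, 7 were higher in endothelial cells and 2 lower, with a median of 3.31 beside -0.07 over all genes. Flt4 (9.33 ± 0.47), Tie1 (8.96 ± 0.26), Ptprb (8.69 ± 0.26), Pdgfd (4.96 ± 0.19), Nrp1 (3.49 ± 0.16), Nrp2 (3.31 ± 0.19) and Vegfc (2.73 ± 0.47) were higher, and Pdgfc (-4.63 ± 0.56) and Vegfb (-2.02 ± 0.19) lower. All 6 sprouting genes tested were higher in endothelial cells, namely Cd34 (10.33 ± 0.22), Apln (6.54 ± 0.33), Unc5b (6.26 ± 0.20), a receptor of netrin, Dll4 (5.51 ± 0.48), Plvap (4.02 ± 0.38) and Hey1 (1.86 ± 0.24). Of the 10 hypoxia-responsive genes 4 were higher, Adm (11.12 ± 0.51), Slc2a1 (5.64 ± 0.16), Ankrd37 (4.63 ± 0.23) and Ldha (0.59 ± 0.13), and 2 lower, Egln3 (-1.71 ± 0.36) and Pgk1 (-0.49 ± 0.13).

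**Figure D4:**
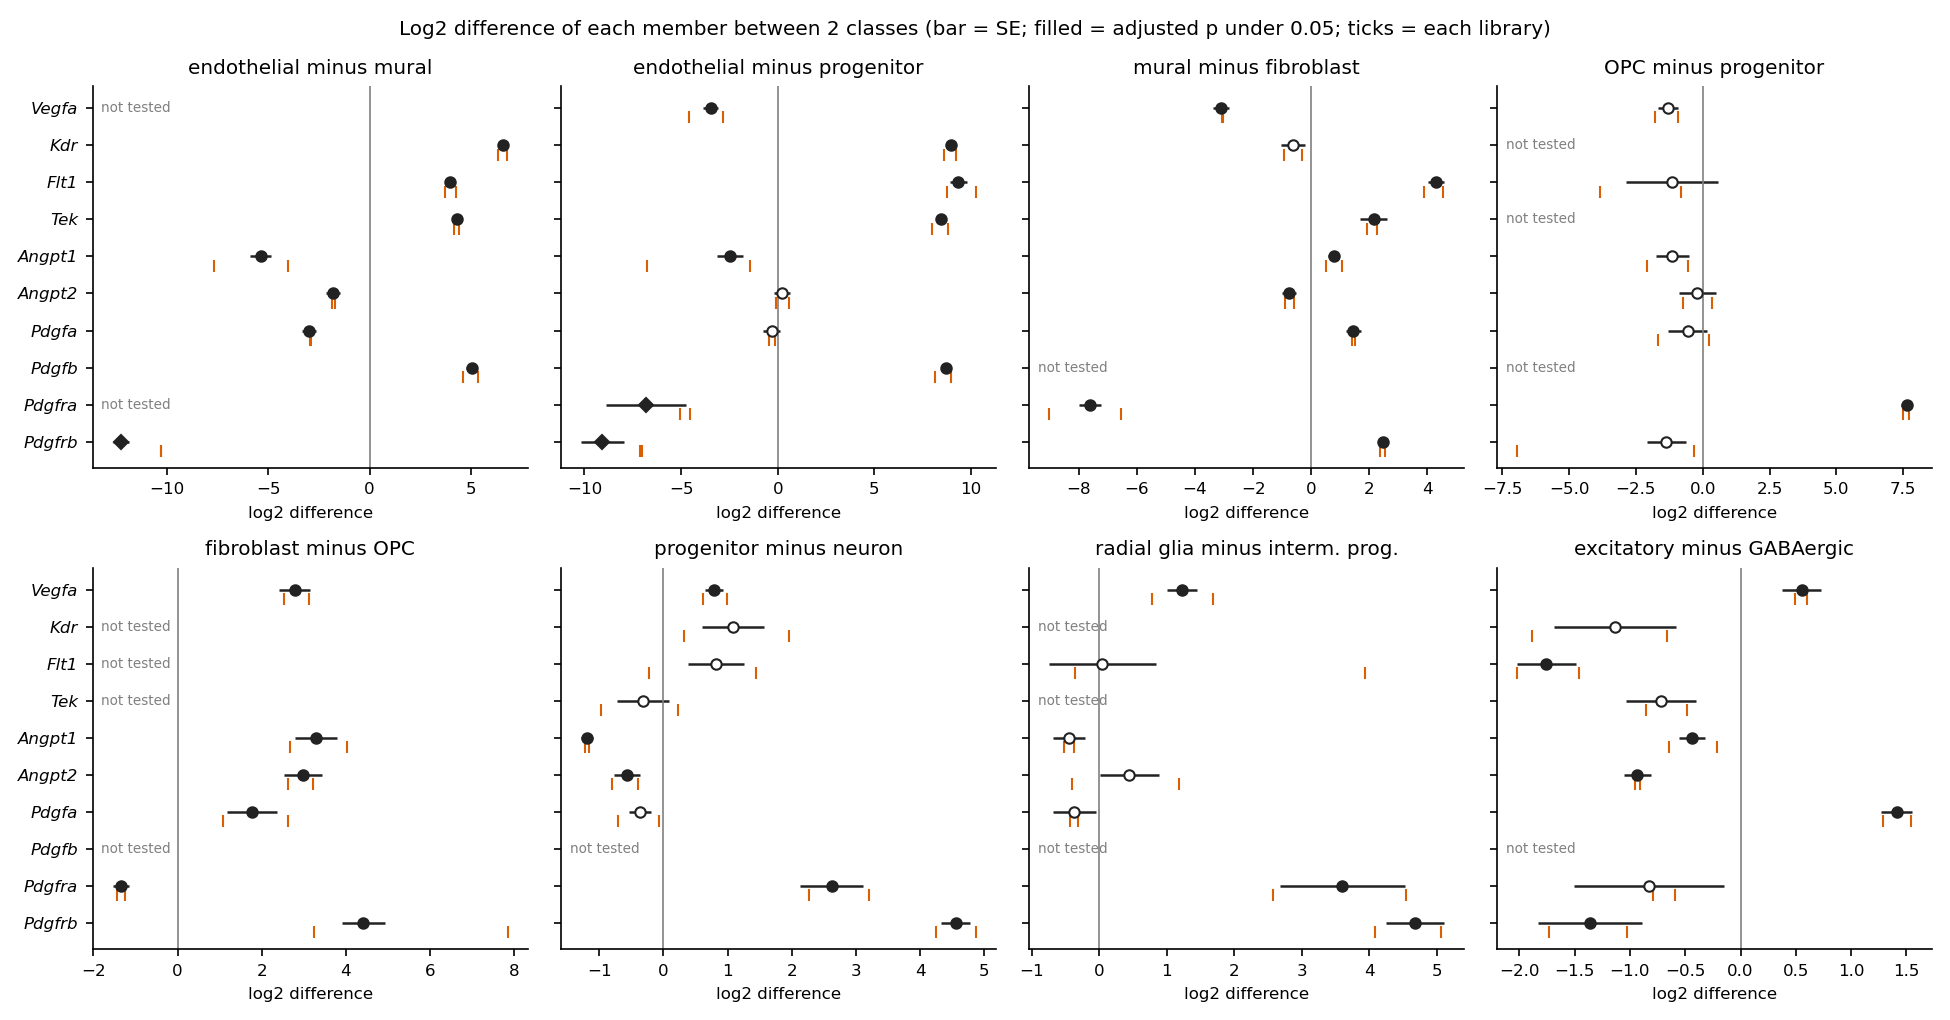
Log2 difference of each member (rows) in the 8 comparisons of classes (panels), with the SE as a bar, filled symbols for an edgeR adjusted p under 0.05 and orange ticks for the difference within each library. Diamonds mark genes at 0 UMIs in a class, whose fitted value depends on the prior count and is no bound. Kdr lies at 6.61 in endothelial minus mural cells and Pdgfra at 7.62 in OPCs minus progenitors.

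The PDGF-B pair was split across the vessel wall. Pdgfb stood at 203.2 and 196.3 CPM in endothelial cells, at 19.2 and 14.7 CPM in microglia, at 4.69 and 7.41 CPM in mural cells and at no more than 1.60 CPM in the other 7 classes. Its receptor gene Pdgfrb stood at 747.9 and 768.6 CPM in mural cells, at 124.9 and 141.2 CPM in fibroblasts and at 31.0 and 30.2 CPM in radial glia. In OPCs it had 4 and 0 UMIs and in microglia 0 and 8, so both classes were at 0 in 1 of the libraries. Mural cells thus lay above fibroblasts, and fibroblasts above radial glia, in both libraries. After thinning, 35.2% of endothelial cells (27.4 to 43.9%) held Pdgfb and 79.5% of mural cells (73.1 to 84.7%) held Pdgfrb, against 19.6% of fibroblasts (14.6 to 25.7%) and 0 of 125 endothelial cells, which allows a share of up to 2.40%. Pdgfb in microglia was found in 4.38% of 137 cells deep enough to be thinned (2.02 to 9.23%), an interval that lies below the endothelial one.

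In radial glia 6.58% of cells (5.06 to 8.50%) held Pdgfrb, and in intermediate progenitors 0.312% (0.0550 to 1.74%). The radial glia level of Pdgfrb was 4.03% of the mural level. The mural marker list was summed at 78.6 and 70.7 CPM in radial glia, 0.607% of its mural level, and most of that was Notch3 (54.7 CPM), a Notch receptor. As a percent of the mural level, Notch3 was at 13.1%, Cox4i2 at 2.68% and Tagln at 0.664% in radial glia. Lower still were Acta2 (0.189%), Ndufa4l2 (0.106%), Rgs5 (0.100%), Vtn (0.0849%), Kcnj8 (0.0391%), Higd1b (0.0259%) and Abcc9 (0.0215%). Cells that met the mural gate were not counted as radial glia, which lowers these values. The part of mural RNA in the Pdgfrb level of radial glia was not tested.

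Mural cells and fibroblasts, the mesenchymal classes, differed in 8 of the 9 members tested, with 27.7% of 10149 genes called, 13.5% as higher in mural cells and 14.2% as lower. Pdgfrb (2.45 ± 0.15, edgeR adjusted p = 3.13e-08), Flt1 (4.30 ± 0.28, adjusted p = 4.86e-08), Tek (2.15 ± 0.45, adjusted p = 0.00246), Pdgfa (1.45 ± 0.25, adjusted p = 0.000479) and Angpt1 (0.78 ± 0.19, adjusted p = 0.00676) were higher in mural cells. Pdgfra, with 2 UMIs in mural cells and 649 in fibroblasts, was lower in mural cells (-7.61 ± 0.37, adjusted p = 3.05e-09), as were Vegfa (-3.10 ± 0.27, adjusted p = 9.19e-07) and Angpt2 (-0.76 ± 0.23, adjusted p = 0.0219). Kdr (-0.63 ± 0.43, adjusted p = 0.319) was not called, and Pdgfb, with 10 and 1 UMIs, was too low to test. In DESeq2 the calls of Angpt1 (adjusted p = 0.0874) and Angpt2 (adjusted p = 0.25) were lost.

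Kdr in fibroblasts was 1.53% of its endothelial level. There the endothelial marker list was summed at 422.2 and 439.2 CPM, 4.65% of the endothelial level, mostly Ramp2 (317.7 CPM) and Cdh5 (70.9 CPM). Ramp2 was at 21.6%, Cdh5 at 18.4%, Egfl7 at 2.97%, Slco1c1 at 1.58% and Emcn at 1.53% of their endothelial levels. Pecam1 was at 0.661%, Erg at 0.350% and Cldn5 at 0.0616%, and Esam and Ly6c1 were at 0. The part of other cells' RNA in the Kdr level of fibroblasts was not tested. For Pdgfrb in fibroblasts the mural list reached 9.07% of its mural level, of which Vtn (957.2 CPM) made up most. Vtn was at 68.7%, Tagln at 10.7%, Ndufa4l2 at 6.42%, Notch3 at 5.05% and Cox4i2 at 1.03% of the mural level. Acta2 was at 0.428%, Higd1b at 0.418%, Abcc9 at 0.327%, Kcnj8 at 0.118% and Rgs5 at 0.100%. The part of mural RNA in the Pdgfrb level of fibroblasts was not tested. Of 13 further family genes 7 were tested between mural cells and fibroblasts, 2 were higher in mural cells, Pgf (2.67 ± 0.32) and Nrp1 (1.33 ± 0.16), and 4 lower, Pdgfd (-3.67 ± 0.72), Vegfc (-3.56 ± 0.46), Pdgfrl (-2.53 ± 0.28) and Vegfb (-0.69 ± 0.22), with a median of -0.82 beside a median near 0 over all genes. Unc5b, the only sprouting gene that could be tested, was higher in mural cells (4.41 ± 0.32), and of 9 hypoxia-responsive genes tested Ankrd37 was higher (2.85 ± 0.39) and Pdk1 lower (-2.17 ± 0.30).

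Pdgfra was highest in OPCs and fibroblasts among the 10 classes. It stood at 769.7 and 641.8 CPM in OPCs, at 255.6 and 241.9 CPM in fibroblasts, at 5.89 and 4.43 CPM in radial glia and at no more than 2.34 CPM in the other 7 classes, with 0 UMIs in endothelial cells, microglia and erythroid cells. The thinned share was 67.3% of 55 OPCs (54.1 to 78.2%), 24 of 29 cells in WT replicate 1 and 13 of 26 in WT replicate 6, and 40.7% of 194 fibroblasts (34.1 to 47.8%). The receptors coincided in fibroblasts, where 130 of 194 cells held both Pdgfra and Pdgfrb, 42 Pdgfra alone and 9 Pdgfrb alone. In mural cells 2 of 187 held both, and in OPCs 1 of 55.

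Against progenitors, OPCs were higher in Pdgfra by 7.62 ± 0.21 (edgeR adjusted p = 8.30e-09), the only call among 7 members tested, where 12.6% of 12884 genes were called, 902 genes as higher in OPCs and 5.62% as lower. Vegfa was at 10.5 and 19.4 CPM in OPCs and differed from progenitors by -1.29 ± 0.38 (adjusted p = 0.0515), a difference that passed the threshold when 1 more marker was required (-2.21 ± 0.48, adjusted p = 0.00857) and under 3 other settings (adjusted p from 0.0387 to 0.0435). Pdgfrb, with 4 UMIs in OPCs of WT replicate 1 and 0 in WT replicate 6, was not called (-1.36 ± 0.72, adjusted p = 0.276). Angpt1 (-1.13 ± 0.61, adjusted p = 0.283), Pdgfa (-0.57 ± 0.72, adjusted p = 0.689), Flt1 (-1.15 ± 1.71, adjusted p = 0.739) and Angpt2 (-0.20 ± 0.69, adjusted p = 0.895) were not called. OPCs held few cells, and 0 UMIs of Kdr, Tek or Pdgfb were counted in them, so these genes were too low to test. Of the further family genes 8 were tested and 0 called by edgeR (1 at an unadjusted p under 0.05) or DESeq2, the 1 sprouting gene tested was not called (unadjusted p over 0.05), and of 9 hypoxia-responsive genes tested 1 was lower in OPCs.

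Fibroblasts were compared with OPCs as the classes with most Pdgfra. All 6 members tested were called, where 33.9% of 9485 genes were, 18.8% as higher in fibroblasts and 1424 genes as lower. Pdgfra was lower in fibroblasts by -1.35 ± 0.19 (log2, SE; edgeR adjusted p = 0.000160), and Pdgfrb (4.41 ± 0.51, adjusted p = 3.39e-05), Angpt1 (3.29 ± 0.50, adjusted p = 0.000292), Angpt2 (2.98 ± 0.45, adjusted p = 0.000267), Vegfa (2.79 ± 0.37, adjusted p = 9.87e-05) and Pdgfa (1.77 ± 0.60, adjusted p = 0.0393) were higher. The call of Pdgfa was lost in DESeq2, without TMM scaling, with the stricter cell filter and with 1 more marker (adjusted p from 0.0530 to 0.277). Pdgfrb was at 3.23 within WT replicate 1, and in WT replicate 6 it had 0 UMIs in OPCs. Kdr, Flt1, Tek and Pdgfb, with 35, 18, 11 and 1 UMIs in fibroblasts and at most 1 in OPCs, were too low to test. Of the other lists, 4 of 6 family genes tested and 4 of 7 hypoxia-responsive genes tested were higher in fibroblasts, and 1 hypoxia-responsive gene was lower.

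Vegfa was highest in fibroblasts among the 10 classes, at 87.6 and 103.2 CPM, followed by radial glia at 44.0 and 52.9 CPM. Then came excitatory neurons (19.2 and 24.9 CPM), intermediate progenitors (24.8 and 15.8 CPM), GABAergic neurons (13.6 and 18.8 CPM) and OPCs (10.5 and 19.4 CPM), whose library ranges overlapped with their neighbours in this order. Mural cells (10.6 and 12.4 CPM) lay above microglia (5.24 and 4.90 CPM). Thinned shares were 18.0% of fibroblasts (13.3 to 24.1%), 9.18% of radial glia (7.38 to 11.4%) and 1.46% of microglia (0.401 to 5.17%). Among 194 fibroblasts 109 held both Vegfa and Pdgfra. In radial glia 72 of 813 cells held Vegfa and Pdgfrb, 188 Vegfa alone and 94 Pdgfrb alone.

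Angpt1 was highest in mural cells, at 94.96 and 123.6 CPM, then in fibroblasts (64.6 and 57.0 CPM), GABAergic neurons (47.3 and 37.2 CPM), excitatory neurons (28.3 and 30.2 CPM), intermediate progenitors (24.0 and 22.0 CPM) and radial glia (17.1 and 17.5 CPM). The library ranges of neighbours in this order did not overlap. Endothelial cells had 4 and 0 UMIs, and microglia stood at 6.98 and 6.53 CPM. Angpt2 stood at 64.6 and 57.0 CPM in fibroblasts, 35.2 and 39.5 CPM in mural cells and 23.7 and 21.1 CPM in GABAergic neurons. In the endothelial class as a whole it stood at 9.91 and 10.6 CPM, close to microglia at 10.5 and 8.16 CPM. Angpt2 is known from sprouting endothelium, but sprouting cells were not told apart within this class, so their level was not measured. Without thinning, 30.9% of fibroblasts held an Angpt1 UMI and 40.7% an Angpt2 UMI.

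Pdgfa was highest in mural cells among the 10 classes at 63.3 and 56.8 CPM, then in fibroblasts at 23.0 and 19.0 CPM. Intermediate progenitors (17.6 and 11.7 CPM) and excitatory neurons (13.8 and 15.2 CPM) overlapped, and radial glia (13.3 and 9.70 CPM) lay below excitatory neurons. GABAergic neurons stood at 6.06 and 5.55 CPM and microglia at 1.75 and 3.27 CPM. Of 187 mural cells 54 held both Pdgfrb and Pdgfa and 78 both Pdgfrb and Angpt1. The ligand gene for PDGF receptor alpha was thus counted in mural cells that carried receptor beta.

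Progenitors were compared with the sum of excitatory and GABAergic neurons. The paper places the origin of excitatory neurons in the cortex and that of cortical inhibitory interneurons in the basal telencephalon. The comparison therefore does not follow 1 lineage across its last division. Of 16558 genes tested 63.6% were called, 32.0% as higher in progenitors and 31.6% as lower, and 5 of 9 members were called. Vegfa was higher in progenitors by 0.79 ± 0.14 (edgeR adjusted p = 0.00141), Pdgfrb by 4.56 ± 0.23 (adjusted p = 1.37e-06) and Pdgfra by 2.62 ± 0.49 (adjusted p = 0.00204), while Angpt1 was lower by a log2 difference of -1.19 ± 0.10 (adjusted p = 2.16e-05) and Angpt2 by -0.57 ± 0.20 (adjusted p = 0.0357). Pdgfa was at 12.2 and 8.74 CPM in progenitors and 11.8 and 13.01 CPM in neurons and was not called (-0.37 ± 0.17, adjusted p = 0.0928), nor were Kdr (1.08 ± 0.48, adjusted p = 0.0814), Flt1 (0.83 ± 0.44, adjusted p = 0.135) and Tek (-0.32 ± 0.40, adjusted p = 0.518). Pdgfb, with 7 and 24 UMIs, was too low to test. With the library as a block 8 members were called, the additions being Kdr (1.12 ± 0.45, adjusted p = 0.0282), Flt1 (0.77 ± 0.34, adjusted p = 0.0415) and Pdgfa (-0.37 ± 0.15, adjusted p = 0.0313). The call of Angpt2 was lost in DESeq2, without TMM scaling, without the filter on low counts and with the stricter cell filter (adjusted p from 0.0502 to 0.0811). Angpt2 in excitatory neurons (11.8 and 10.2 CPM) lay within the progenitor range (12.4 and 7.97 CPM), and GABAergic neurons (23.7 and 21.1 CPM) lay above it. For Pdgfa the sum joined excitatory neurons at 13.8 and 15.2 CPM with GABAergic neurons at 6.06 and 5.55 CPM. Vegfa was lower and Angpt1 higher in each neuron class than in progenitors, in both libraries. In the progenitor sum Angpt1 (16.3 and 14.9 CPM) lay below radial glia (17.1 and 17.5 CPM) and intermediate progenitors (24.0 and 22.0 CPM). Pdgfa in that sum likewise lay below radial glia (13.3 and 9.70 CPM) and intermediate progenitors (17.6 and 11.7 CPM). The 286 cells that met both progenitor gates are part of the sum and lowered its level for these genes.

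Of the 50 Pdgfra UMIs in progenitors 39 were in radial glia, where Pdgfra was at 0.731% of its OPC level and the OPC marker list at 1.71% of its own, and the part of OPC RNA was not tested. Kdr and Flt1 in progenitors and neurons were each at or below 6.13 CPM. Their thinned shares were at or below those in microglia, a class of 162 cells, too few to set a background. By level, Flt1 in progenitors (1.89 and 6.13 CPM) lay above microglia (1.75 and 3.27 CPM) within each library, with overlapping ranges. Kdr in progenitors (1.60 and 2.45 CPM) lay below microglia (3.49 and 6.53 CPM). Whether these low counts come from the progenitors and neurons themselves was not tested. Among the further family genes 11 were tested, 6 were higher in progenitors and 2 lower, with a median of 0.59 beside -0.02 over all genes. Higher were Pdgfd (3.88 ± 0.34), Pdgfrl (1.76 ± 0.27), Angpt4 (1.495 ± 0.56), Vegfb (1.10 ± 0.08), Pgf (1.05 ± 0.27) and Pdgfc (0.59 ± 0.11). The co-receptor genes Nrp1 (-4.03 ± 0.09) and Nrp2 (-2.48 ± 0.15), which are semaphorin receptors of axons as well, were lower in progenitors. Of the hypoxia-responsive genes 9 were tested, 6 were higher in progenitors, Egln3 (4.75 ± 0.19), Ldha (1.53 ± 0.07), Pgk1 (1.26 ± 0.07), Slc2a1 (1.21 ± 0.12), P4ha1 (0.69 ± 0.09) and Pdk1 (0.31 ± 0.11), and 2 lower, Ndrg1 (-2.64 ± 0.22) and Ankrd37 (-0.63 ± 0.24). Ldha and Pgk1 code for enzymes of glycolysis and Egln3 for an oxygen sensor. Of 5 sprouting genes tested 3 were higher in progenitors, Apln (3.03 ± 0.68), Hey1 (2.73 ± 0.18) and Dll4 (1.90 ± 0.60), of which Dll4 and Hey1 belong to the Notch pathway of neural progenitors too.

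Within progenitors, radial glia were higher than intermediate progenitors in 3 of 7 members tested, where 32.2% of 12194 genes were called, 18.2% as higher in radial glia and 13.9% as lower. These were Pdgfrb (4.68 ± 0.43, edgeR adjusted p = 4.57e-06), Pdgfra (3.60 ± 0.92, adjusted p = 0.00982) and Vegfa (1.23 ± 0.22, adjusted p = 0.00115). Angpt1 (-0.45 ± 0.23, adjusted p = 0.168), Pdgfa (-0.37 ± 0.32, adjusted p = 0.431) Angpt2 (0.44 ± 0.44, adjusted p = 0.491) and Flt1 (0.05 ± 0.80, adjusted p = 0.974) were not called. Kdr (19 and 3 UMIs), Tek (8 and 3) and Pdgfb (2 and 2) were too low to test. Pdgfra rested on 39 and 1 UMIs and lost its call in DESeq2 (adjusted p = 0.123). Of the lists, 4 of 8 family genes tested were higher in radial glia and 2 lower, the 1 sprouting gene tested was higher, and 4 of 9 hypoxia-responsive genes tested were higher and the other 5 not called.

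Excitatory and GABAergic neurons differed in 6 of 9 members tested, with 45.7% of 15962 genes called, 22.7% as higher in excitatory neurons and 23.0% as lower. Pdgfa (1.41 ± 0.14, edgeR adjusted p = 0.000154) and Vegfa (0.55 ± 0.17, adjusted p = 0.0339) were higher in excitatory neurons. Angpt2 (-0.93 ± 0.13, adjusted p = 0.000776) and Angpt1 (-0.44 ± 0.12, adjusted p = 0.0183) were lower in excitatory neurons, as were Flt1 (-1.75 ± 0.27, adjusted p = 0.00142) and Pdgfrb (-1.36 ± 0.47, adjusted p = 0.0468). Flt1 and Pdgfrb were at or below 4.71 CPM in each neuron class. Their thinned shares were at most 0.542%, beside 1.46% of microglia for Flt1 and 0.595% of erythroid cells for Pdgfrb. Microglia and erythroid cells numbered only 162 and 174, too few for these shares to set a background. By level, Flt1 in GABAergic neurons (4.71 and 4.19 CPM) lay above microglia (1.75 and 3.27 CPM) in both libraries. Whether these low counts come from the neurons themselves was not tested. The call of Pdgfrb was lost under 5 alternatives (adjusted p from 0.0637 to 0.175). Kdr (-1.13 ± 0.55, adjusted p = 0.133), Tek (-0.72 ± 0.32, adjusted p = 0.102) and Pdgfra (-0.83 ± 0.68, adjusted p = 0.355) were not called, and Pdgfb, with 17 and 7 UMIs, was too low to test. With the library as a block Kdr was called as well (-1.13 ± 0.46, adjusted p = 0.0265). The difference in Angpt1 fell to -0.09 ± 0.10 (adjusted p = 0.514) when 1 more marker was required, and Vegfa lost its call in DESeq2 and without TMM scaling (adjusted p = 0.0540 and 0.0631).

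Thinned shares in neurons were small for all 4 ligand genes. Angpt1 was found in 4.48% of GABAergic neurons (3.77 to 5.32%) and 4.01% of excitatory neurons (3.51 to 4.57%), against 0.730% of microglia (0.129 to 4.02%). Angpt2 was found in 4.34% of GABAergic neurons (3.64 to 5.16%), and Pdgfa in 2.45% of excitatory (2.07 to 2.91%) and 1.12% of GABAergic neurons (0.790 to 1.59%). Without thinning, Vegfa and Pdgfa were found together in 128 of 5252 excitatory neurons, Vegfa without Pdgfa in 765 and Pdgfa without Vegfa in 463. Angpt1 and Pdgfa were found together in 77, Angpt1 without Pdgfa in 418 and Pdgfa without Angpt1 in 514. Each gene alone was found in few cells, and whether the genes shared cells more or less often than this implies was not tested. Of the lists, 4 of 11 family genes tested were higher in excitatory neurons and 5 lower, 1 of 3 sprouting genes higher, and 6 of 9 hypoxia-responsive genes higher and 1 lower.

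Level per class and share of all UMIs gave different pictures of where each gene's RNA lay. Endothelial cells made up 0.765% of the cells and 1.30% of the UMIs but held 66.0% of Kdr UMIs, 64.0% of Flt1, 58.6% of Pdgfb and 56.3% of Tek UMIs. Mural cells held 1260 of 2522 Pdgfrb UMIs, and fibroblasts 44.0% and OPCs 28.3% of Pdgfra UMIs. For the ligand genes the order turned: excitatory neurons, with 38.6% of all UMIs, held 42.6% of Pdgfa, 35.8% of Vegfa, 32.1% of Angpt1 and 25.0% of Angpt2 UMIs, while mural cells, where the Angpt1 level was highest, held 4.03% of its UMIs. Cells that met several gates held 16.1 to 25.3% of each member's UMIs.

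**Figure D5:**
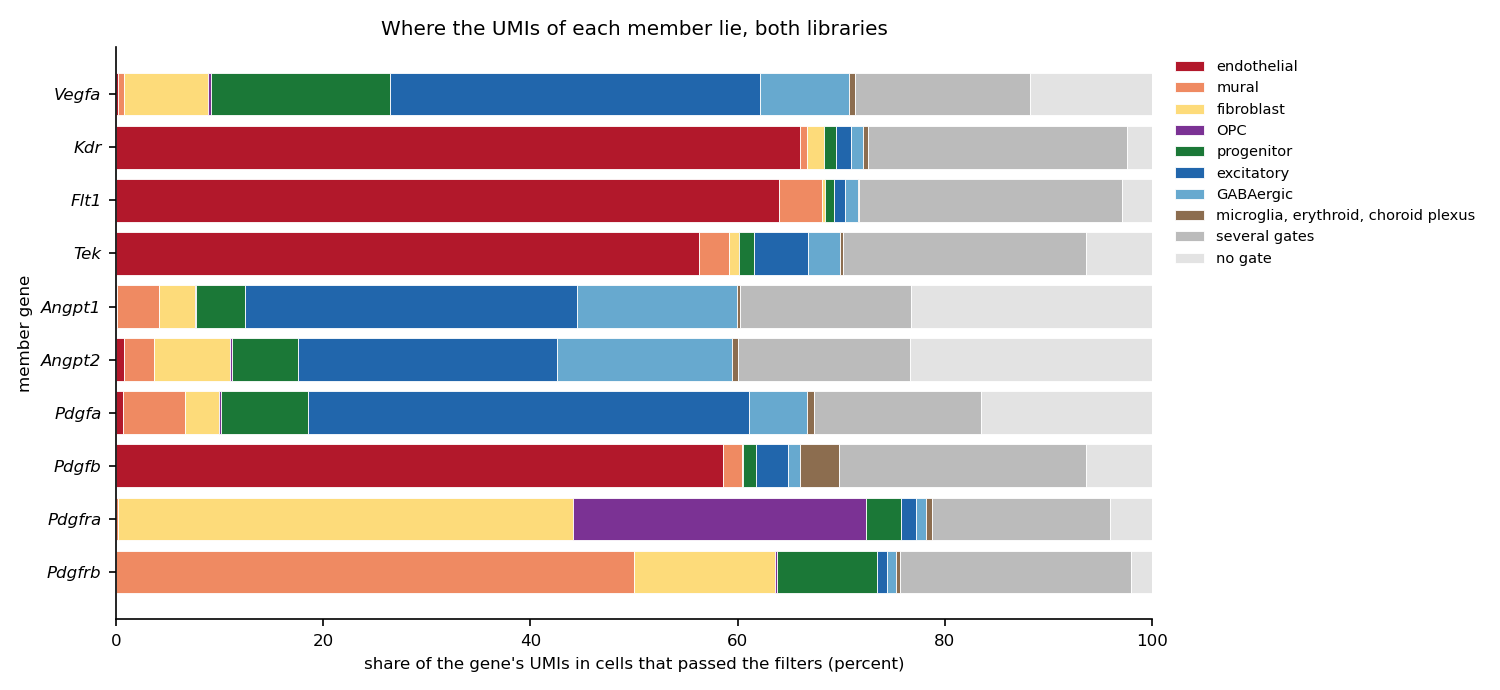
Share of each member's UMIs (horizontal axis, percent) by gated class, over all cells of both libraries that passed the filters, with grey for cells that met several gates or none. Endothelial cells (dark red) hold 66.0% of Kdr UMIs, and excitatory neurons (dark blue) 42.6% of Pdgfa UMIs.

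Genes with the most similar pattern were named by Pearson's r of log2(CPM + 10) over 10 classes in 2 libraries (20 values, in which classes of a library share its preparation), among 7214 genes with a mean of at least 50 CPM in 1 class or more, as a description. For Kdr these were Zfp366 (0.989), Htra3 (0.989) and C130074G19Rik (0.988), for Flt1 Adgrf5 (0.993), Kcnq1 (0.986) and Pcp4l1 (0.985), and for Tek Kcnq1 (0.988), Tie1 (0.986) and Robo4 (0.981). Pdgfb was closest to Gimap1 (0.978), Slc39a8 (0.978) and Parvb (0.976), Pdgfrb to Myl9 (0.979), Axl (0.976) and Ccdc3 (0.966), and Pdgfra to Sema3d (0.982), Sulf2 (0.919) and Cobl (0.899). The other ligand genes were closest to these genes: Vegfa to Ppp1r1a (0.944), Nkain4 (0.921) and Col12a1 (0.906), Angpt1 to Rian (0.941), Meg3 (0.931) and B830012L14Rik (0.930), Angpt2 to P3h3 (0.917), Maged2 (0.917) and Rdh10 (0.915), and Pdgfa to B130024G19Rik (0.941), Pde5a (0.936) and Pcdh18 (0.933).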

How the data were processed

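The authors deposited unnormalized UMI counts, with a gene number, a cell number and a count per line. Per the submitters' processing notes and labels, 10x single-cell 3' v3.1 libraries were processed with Cell Ranger 7.0.0 on mm10. The annotation and the handling of intronic reads are not given in the sources used here, so levels are read within a gene, across classes. Cells were gated by the number of markers detected (5 of 10 endothelial, mural and fibroblast markers, 4 of 9 OPC, excitatory, GABAergic and microglial, 4 of 8 radial glia, 3 of 6 intermediate progenitor, 6 of 9 erythroid), numbers set after the marker counts had been seen. A cell meeting the endothelial, mural, fibroblast or OPC gate was not counted as radial glia, cells meeting both the radial glia and the intermediate progenitor gate (286) entered only the progenitor sum, and other cells meeting several gates were left out. The 7 cells of the choroid plexus gate (3 of 6 markers) were not described as a class. Doublets were kept, as an alternative dropped 920 and 857 likely ones. UMIs were summed per class and library and tested with edgeR 4.0.16 (glmQLFit and glmQLFTest, two-sided, TMM, filterByExpr, only the classes compared in a fit, Benjamini-Hochberg over all genes tested) in R 4.3.3, after a check on simulated counts. The libraries' sums differed by a chi-square of 26.9 per degree of freedom and were treated as separate libraries. Classes compared share their libraries, and deviations of same-library sums correlated across genes with r from 0.0855 to 0.347. A fit with the library as a block, DESeq2 1.42.0 and the other settings are alternatives. The members and gene lists were chosen with earlier results of these data known. The 10 members are given in every comparison, with UMIs alone where too low to test, and list genes where they were called in the first 3 comparisons or between progenitors and neurons.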

Additional observations from a re-analysis of the deposited data

Results flagged for a closer look

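Of the cells that passed the filters, 4153 (25.4%) met no gate and entered no comparison, and 4 members stood higher in them than in radial glia, intermediate progenitors, excitatory neurons or GABAergic neurons in both libraries. Angpt1 was at 67.8 CPM (67.4 in WT replicate 1 and 68.1 in WT replicate 6), Angpt2 at 32.9 CPM (38.3 and 27.4), Tek at 4.74 CPM (5.02 and 4.46) and Pdgfb at 2.34 CPM (2.83 and 1.83). Median depth in the cells that met no gate was 2662 and 2879.5 UMIs, beside 6924 and 6664 over all cells that passed. The part of low depth in their meeting no gate was not tested. Their marker lists reached 27.1% of the own-class level for excitatory neurons, 20.5% for GABAergic neurons and 8.18% for radial glia. Lower were intermediate progenitors (6.69%), erythroid cells (6.28%), OPCs (2.06%), endothelial cells (0.473%), fibroblasts (0.376%), microglia (0.370%) and mural cells (0.233%). The part of these other cells in the values was not tested.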

How the results depend on the processing

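Of 65 tests of members, 45 were called, and 35 of these kept their call and direction under all 9 alternatives tried for them. Of 577 values under alternatives 540 kept direction and call, 23 lost the call, 13 gained it and 1 reversed, Pdgfra between endothelial cells and progenitors, at 0.56 with 1 more marker required. The count of members called rose from 1 to 2 between OPCs and progenitors with 1 more marker, with the shared barcodes removed (chosen after seeing the data), without TMM scaling and in a single fit of all classes, and from 5 to 8 between progenitors and neurons with the library as a replicate block. The paired fit changed no other member's call than those given with the results. DESeq2 called fewer genes than edgeR between endothelial and mural cells (1802 against 2903), mural cells and fibroblasts (1690 against 2815), fibroblasts and OPCs (1950 against 3211) and radial glia and intermediate progenitors (2249 against 3921), and the single fit called 4620 against 7291 between excitatory and GABAergic neurons; the cause was not tested. Levels in the class where each of the 10 members was highest moved by more than the SD between libraries for 5 members with doublets removed, for 5 with the stricter cell filter, for 3 with 1 more marker and for 0 with the shared barcodes removed. With doublets removed Kdr in endothelial cells went from 880.0 to 929 CPM and Pdgfrb in mural cells from 758 to 816 CPM, and with 1 more marker Pdgfra in OPCs went from 706 to 798 CPM. Of 130 differences with 1 library left out 16 moved by more than the SD, and with WT replicate 1 left out Angpt1 stood at -6.79 between endothelial cells and progenitors and Pdgfrb at 7.85 between fibroblasts and OPCs, each against 0 UMIs in a class. Leaving out a library turned the direction of no called member, and all 45 called differences had the same sign in both libraries. The 55 OPCs and 125 endothelial cells limit what could be detected for low members.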

Other observations

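The 32 cells that met the endothelial gate but failed the filters held the receptor genes too, with Kdr at 1070 CPM (926 and 1213 in WT replicate 1 and 6), Flt1 at 1511 CPM (1377 and 1645), Tek at 599 CPM (527.3 and 670.9) and Pdgfb at 146 CPM (134.8 and 157.5). In 21 such cells of the mural gate Pdgfrb was at 932 CPM on 54 UMIs, and in 33 of the fibroblast gate Pdgfra was at 306 CPM on 42 UMIs.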
